A study of Mus musculus with 20 samples.

Results

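The 10 genes described here are targets of canonical WNT signalling in mouse, most of which feed back on the pathway: Tcf7, Lef1, Sp5, Axin2, Nkd1, Notum, Dkk1, Znrf3, Rnf43 and Lgr5. They were taken by gene name from the expression tables, in which all 10 were found among 54446 gene identifiers, and rows of one identifier were summed. All 10 also passed the filter on low values, a mean of at least 1 TPM over the libraries (an abundance corrected for transcript length and scaled to the same total in each library), as did 14290 identifiers in all. RNA was sequenced in bulk from 15 libraries, 3 biological replicates in each of 5 groups. All were grown from mouse embryonic stem cells of the F1G4 line carrying the T::H2B-mCherry and Sox2::H2B-Venus reporters, with 3 µM CHIR99021 given to every aggregate at 48 h. CHIR99021 inhibits GSK3 and thereby activates WNT signalling, so all 5 groups had met it once. The 96h group, the precursor stage, came from 10 pooled structures per library. The other groups were collected at 120 h from 6 pooled structures per library: gastruloids, which received no Matrigel (Gastruloid), structures given Matrigel, a basement membrane gel (TLSMG), structures given Matrigel and a second exposure to CHIR (TLSMGC), and structures given Matrigel, CHIR and LDN, known as an inhibitor of BMP receptors (TLSMGCL). The dose and time of the second CHIR and of LDN are not given in the sources used here. Structures were picked for an asymmetric pole before pooling, and all came from the same reporter line, which limits what the groups stand for. The single-cell samples of the series were not analysed here.

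In the canonical pathway, WNT ligands bind Frizzled and LRP co-receptors, the complex that marks beta-catenin for destruction is stalled, and beta-catenin joins TCF and LEF factors on DNA to switch genes on. Many of the genes switched on restrain the pathway again. Tcf7 and Lef1 encode the DNA-binding partners of beta-catenin, and Sp5 a zinc finger factor that acts on WNT targets. Axin2 is a scaffold of the destruction complex and Nkd1 binds Dishevelled inside the cell. Notum is a secreted enzyme that strips the lipid from WNT ligands, and Dkk1 a secreted ligand of LRP co-receptors that blocks them. Znrf3 and Rnf43 are membrane ubiquitin ligases that remove Frizzled from the surface, and Lgr5 is a receptor for R-spondins, which hold those ligases back. In the embryo WNT activity is high in the tailbud and presomitic mesoderm, where it keeps axial progenitors and feeds the segmentation clock.

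TCF and LEF factors read a short motif that begins with CTTTG and varies in its last bases. The forms CTTTGAT and CTTTGAA were searched on both strands in RefSeq promoter windows of build GRCm38.p6, which run from 250 bases before to 50 bases after a gene's start. For 7 of the 10 genes 12 windows were present. Sp5 held CTTTGAT 104 bases before its start and Dkk1 held CTTTGAA 117 bases before its RefSeq start, and the windows of Axin2, Lef1, Nkd1, Rnf43 and Tcf7 held neither form. Only some of these windows sit at the gene's start as the tables place it: the single Nkd1 window has its start 6279 bases inside the gene, and 1 window each of Rnf43 and Lef1 lies 37175 and 45823 bases inside. The absence of the letters there says nothing of sequence elsewhere in these genes. Of all 32851 windows of the same length, 8.65% held at least one of these forms, 3.73% CTTTGAT and 5.14% CTTTGAA. The 250 bases before the start are shown for Sp5, the gene with the largest ratio of group means below, and for Axin2, a widely used WNT reporter gene without a match, on the plus strand at chr2:70474673-70474922 and chr11:108920099-108920348. For Dkk1, whose RefSeq start lies 169 bases inside the gene as the tables place it, only the 30 bases around the motif are shown, from the minus strand at chr19:30549595-30549624. All run 5′ to 3′, and capitals mark only the searched forms CTTTGAT and CTTTGAA. Other stretches that begin with ctttg, as in Sp5, are not marked. The capital letters are a description of the sequence and not evidence of binding.
Sp5: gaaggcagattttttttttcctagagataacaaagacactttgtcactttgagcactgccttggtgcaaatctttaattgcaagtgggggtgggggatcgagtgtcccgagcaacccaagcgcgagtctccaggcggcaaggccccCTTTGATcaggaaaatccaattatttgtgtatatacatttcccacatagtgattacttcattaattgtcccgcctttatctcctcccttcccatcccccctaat
Axin2: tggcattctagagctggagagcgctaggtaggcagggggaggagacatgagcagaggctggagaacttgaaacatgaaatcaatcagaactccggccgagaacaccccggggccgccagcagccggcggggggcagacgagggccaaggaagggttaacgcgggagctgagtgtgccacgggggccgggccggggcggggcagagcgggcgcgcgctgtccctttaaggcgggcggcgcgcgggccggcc
Dkk1: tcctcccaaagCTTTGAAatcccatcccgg

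On GRCm38, the tables place Tcf7 at chr11:52252371-52283014, Lef1 at chr3:131110471-131224356, Sp5 at chr2:70474923-70477729, Axin2 at chr11:108920349-108950783 and Nkd1 at chr8:88521354-88594884. Notum lies at chr11:120653788-120661175, Dkk1 at chr19:30545863-30549665, Znrf3 at chr11:5276324-5444847, Rnf43 at chr11:87662722-87735539 and Lgr5 at chr10:115450311-115587780. All are protein coding. Relative depth, as coverage (mean reads per base) per unit of FPKM in genes with 1 transcript, ran from 3.12 to 6.84 over the libraries, and 13688 to 14494 genes reached 1 TPM. No read counts were used, so no counting intervals or detection limits were computed, and p-values measure the spread between these pools. TPM of a gene with several transcripts depends on how reads were assigned to them. TPM exceeded the level computed from coverage by a median factor of 16.5 in Nkd1, 11.6 in Lef1, 8.30 in Rnf43, 3.20 in Lgr5 and 2.14 in Axin2, against 1.00 in Sp5 and Dkk1, which have 1 annotated transcript each. Levels are therefore compared between groups within a gene, and not between genes.

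The labelled stages were checked against cell type markers. The 12 presomitic and tailbud markers had a summed level of 1724 to 2219 TPM in 96h. The same sum was 192 to 302 TPM in Gastruloid, with TLSMG at 256 to 323 TPM, and the CHIR groups lay between, at 476 to 607 (TLSMGC) and 487 to 558 (TLSMGCL). Summed somite markers (10 genes) were highest in 96h, at 1979 to 2560 TPM, and lay between 798 and 1265 TPM in the 120 h groups. Aldh1a2 made up much of the 96h sum, with a mean of 1189 TPM there and 36.6 to 237 TPM in the other groups. Pax1 and Pax9 had means under 1 TPM in 96h and in both CHIR groups. Neural tube markers (10 genes) summed to 376 to 523 TPM in Gastruloid and 205 to 306 in TLSMG, and to 53.5 to 78.4 in the other groups, where Pax6, Olig2, Olig3 and Neurog2 had means under 1 TPM. Endothelial markers (9 genes) summed to 267 to 324 TPM in TLSMG and to between 10.1 and 84.5 elsewhere. Sums of 8 gut endoderm markers lay between 42.1 and 160 TPM. Those of 10 pluripotency markers lay between 42.2 and 79.2 TPM in TLSMGC and up to 423 TPM in Gastruloid. No listed marker was at 0 in every library of a group. In such bulk samples, fewer cells of a type and less RNA per cell cannot be told apart.

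Among the DNA-binding partners of beta-catenin, Tcf7 stood at 96.0, 100.03 and 103 TPM in the 96h libraries, at 41.9, 46.4 and 51.3 TPM in Gastruloid, at 56.8, 55.7 and 60.03 in TLSMG, at 171, 163 and 159 in TLSMGC and at 134, 115 and 134 in TLSMGCL. The 5 groups did not overlap, and each group passed the test against its neighbour in the order TLSMGC, TLSMGCL, 96h, TLSMG, Gastruloid. Lef1 stood at 365, 317 and 305 TPM in 96h, at 45.0, 60.3 and 65.3 in Gastruloid, at 64.9, 64.7 and 75.5 in TLSMG, at 113, 105 and 98.9 in TLSMGC and at 114, 95.9 and 104 in TLSMGCL. Its order differed from that of Tcf7 in that 96h was highest. TLSMGC and TLSMGCL overlapped and followed 96h, and TLSMG and Gastruloid, which also overlapped, were lowest. An overlapping gene on the opposite strand, Gm43352, had 0.912 to 9.57 TPM.

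Sp5, the zinc finger factor, had the largest ratio between the highest and lowest group means of the 10 genes, 47.6 for TLSMGC over Gastruloid. It stood at 73.7, 105 and 116 TPM in 96h, at 2.50, 4.31 and 4.36 in Gastruloid, at 7.54, 6.24 and 7.84 in TLSMG, at 193, 157 and 182 in TLSMGC and at 141, 136 and 137 in TLSMGCL. No groups overlapped, and all neighbours in the order TLSMGC, TLSMGCL, 96h, TLSMG, Gastruloid passed the test except the first pair, TLSMGC and TLSMGCL (adjusted p = 0.426).

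Axin2 and Nkd1, the feedback inhibitors inside the cell, shared the order TLSMGC, TLSMGCL, 96h, TLSMG, Gastruloid. Axin2 stood at 59.3, 57.6 and 53.5 TPM in 96h, at 20.2, 19.6 and 17.4 in Gastruloid, at 18.3, 31.0 and 23.3 in TLSMG, at 106, 93.4 and 104 in TLSMGC and at 114, 73.6 and 82.8 in TLSMGCL. Nkd1 stood at 56.4, 64.4 and 67.8 TPM in 96h, at 21.2, 21.8 and 23.4 in Gastruloid, at 22.6, 27.6 and 29.2 in TLSMG, at 173, 145 and 145 in TLSMGC and at 150.5, 133 and 149 in TLSMGCL. For both genes TLSMGC overlapped TLSMGCL and TLSMG overlapped Gastruloid, and neither of these pairs passed the test. The steps from TLSMGCL to 96h and from 96h to TLSMG had no overlap and passed it.

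Of the secreted inhibitors, Notum stood at 6.55, 9.09 and 12.2 TPM in 96h, at 2.28, 2.55 and 2.84 in Gastruloid, at 2.61, 1.79 and 2.76 in TLSMG, at 61.9, 73.6 and 65.6 in TLSMGC and at 57.1, 57.5 and 43.4 in TLSMGCL. Both CHIR groups lay above every other library, 96h came next, and TLSMG and Gastruloid overlapped. Notumos, a gene on the opposite strand within the Notum region, moved alongside, from a mean of 0.0357 TPM in Gastruloid to 4.97 ± 0.783 (SD, n = 3) in TLSMGC. Whether reads were counted by strand is not given in the sources used here, so reads of these genes cannot be told apart. Dkk1 stood at 3.81, 1.15 and 1.73 TPM in 96h, at 0.180, 0.295 and 0.0799 in Gastruloid, at 0.7998, 0.682 and 0.585 in TLSMG, at 3.32, 5.79 and 2.41 in TLSMGC and at 1.30, 1.05 and 1.39 in TLSMGCL. Gastruloid was lowest in every library, but no 2 neighbouring groups in the order TLSMGC, 96h, TLSMGCL, TLSMG, Gastruloid passed the test, and 96h overlapped both of its neighbours.

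At the cell surface, Znrf3 stood at 9.21, 7.02 and 8.21 TPM in 96h, at 5.53, 4.55 and 6.58 in Gastruloid, at 7.59, 6.47 and 8.17 in TLSMG, at 12.9, 10.2 and 10.1 in TLSMGC and at 10.1, 8.90 and 10.2 in TLSMGCL. All neighbours in the order TLSMGC, TLSMGCL, 96h, TLSMG, Gastruloid overlapped, and only the last pair passed the test. Rnf43 stood at 1.03, 0.761 and 1.13 TPM in 96h, at 0.534, 1.01 and 0.610 in Gastruloid, at 1.03, 1.53 and 0.939 in TLSMG, at 1.99, 2.01 and 1.58 in TLSMGC and at 1.27, 1.42 and 1.75 in TLSMGCL. Lgr5 stood at 2.37, 1.13 and 1.21 TPM in 96h, at 1.58, 1.09 and 0.494 in Gastruloid, at 2.07, 2.44 and 1.93 in TLSMG, at 2.36, 4.14 and 2.30 in TLSMGC and at 1.60, 1.42 and 2.36 in TLSMGCL. For Rnf43 and Lgr5 no neighbours in the order of means passed the test, and coverage was low, from 0.140 to 0.468 reads per base for Rnf43 and from 0.527 to 3.92 for Lgr5. These orders also use TLSMGCL against TLSMG, where 6 of the 10 genes were higher and none lower. The log2 differences (± SE) were 4.09 ± 0.17 for Sp5, 3.99 ± 0.18 for Notum and 2.41 ± 0.10 for Nkd1. Those of Axin2 (1.86 ± 0.17), Tcf7 (1.14 ± 0.08) and Lef1 (0.61 ± 0.12) were smaller. Of all genes 44.9% passed in that comparison, 9.31% upwards and 35.6% downwards.

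**Figure D1:**
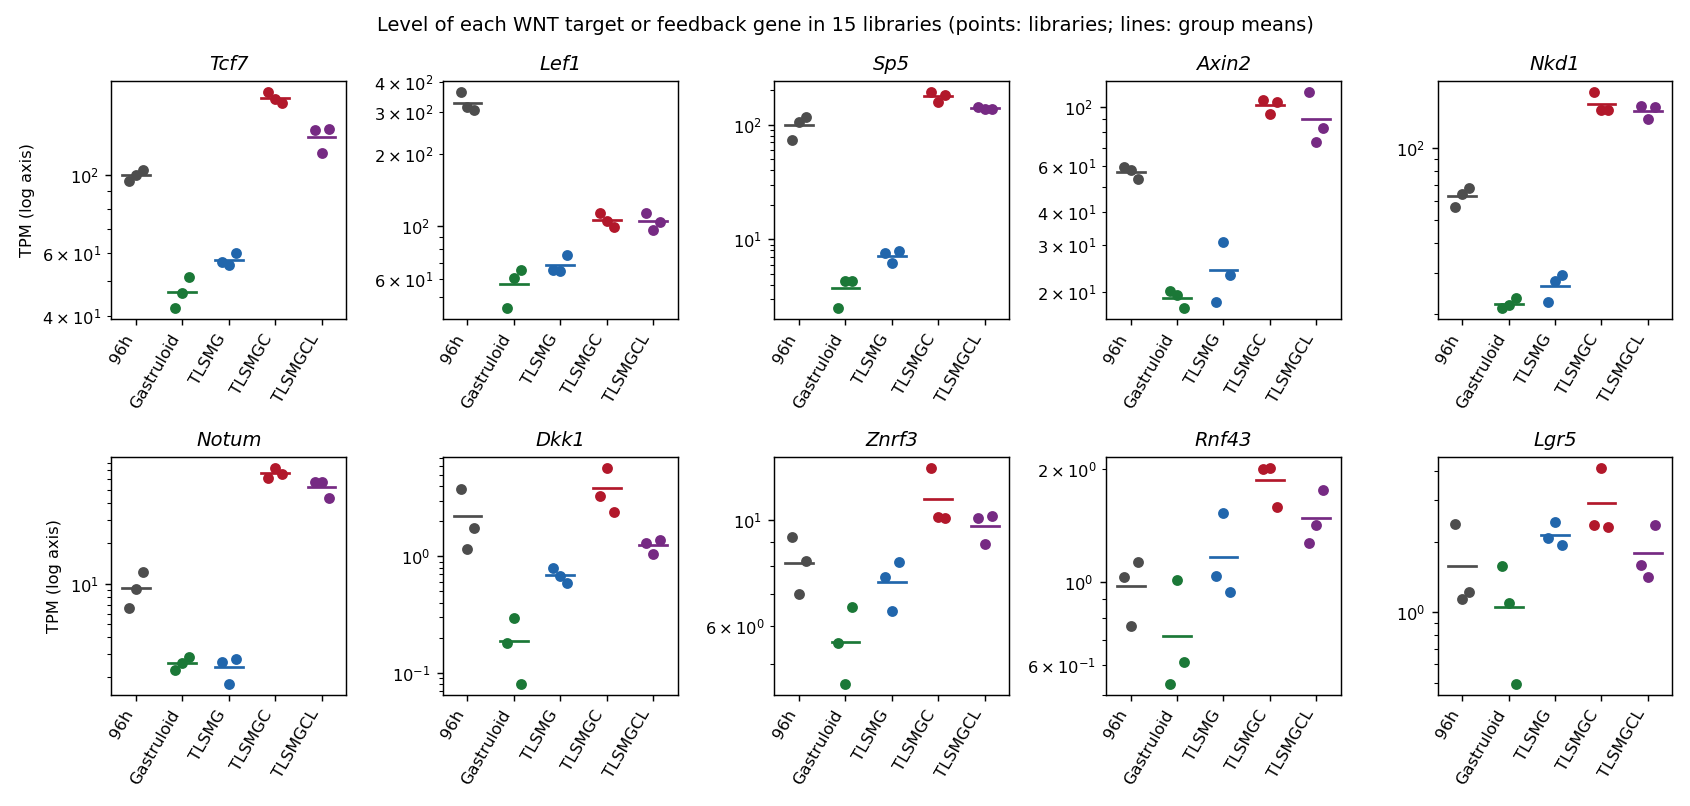
Level of each of the 10 genes in TPM on a log axis, whose range differs between panels, with 1 point per library and lines at the group means. Axin2, Nkd1, Sp5, Notum and Tcf7 were highest in TLSMGC and TLSMGCL, with TLSMGC means of 101 TPM for Axin2 and 177 TPM for Sp5, whereas Lef1 was highest in 96h, with a mean of 329 TPM.

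The first comparisons ask what happened to these genes between 96 h and 120 h without renewed CHIR. Without Matrigel, 8 of the 10 genes fell and none rose, where 41.2% of all genes tested passed the threshold (an adjusted p under 0.05 in limma), 20.5% downwards and 20.8% upwards. Higher genes made up 50.4% of those called, and 62.5% with FPKM. Sp5 fell the most, to 3.72 ± 1.06 from 98.3 ± 21.9 TPM (SD, n = 3), a log2 difference of -4.39 ± 0.17 (SE, adjusted p = 4.54e-10) on the log2(TPM + 1) scale used for all differences. Lef1 fell to 56.9 ± 10.5 from 329 ± 31.7 TPM, a difference of -2.52 ± 0.12 (adjusted p = 2.58e-09). Axin2 (-1.53 ± 0.17), Notum (-1.49 ± 0.18), Nkd1 (-1.46 ± 0.10), Dkk1 (-1.37 ± 0.27), Tcf7 (-1.09 ± 0.08) and Znrf3 (-0.49 ± 0.14) also fell. The log2(TPM + 1) scale understates changes of low genes such as Dkk1, with 2.23 ± 1.40 TPM in 96h and 0.185 ± 0.108 in Gastruloid. By mean TPM, Dkk1 was 12.1 times and Lef1 5.79 times as high in 96h as in Gastruloid. These 8 genes had no overlap between Gastruloid and 96h. Rnf43 (-0.21 ± 0.15, adjusted p = 0.281) and Lgr5 (-0.33 ± 0.24, adjusted p = 0.292) overlapped and did not pass. The median difference over the 10 genes was -1.41, beside 0.00 over all genes tested. The call for Znrf3 was lost without 96h replicate 1 (adjusted p = 0.0548) or Gastruloid replicate 2 (0.0599).

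In Matrigel, 7 of the 10 genes were lower in TLSMG than in 96h and none higher, where 46% of all genes passed, 12.5% downwards and 33.5% upwards. Of the genes that passed, 72.9% were higher, against 61.7% with FPKM and 49.1% with median-of-ratios scaling, which moved the median of all genes from 0.14 to -0.01. This comparison shares its 96h libraries with the previous one. Sp5 fell to 7.20 ± 0.849 TPM, a log2 difference of -3.58 ± 0.17 (adjusted p = 3.07e-09), and Lef1 to 68.4 ± 6.19 TPM, a difference of -2.25 ± 0.12 (8.09e-09). Notum (-1.58), Axin2 (-1.23), Nkd1 (-1.22), Dkk1 (-0.85) and Tcf7 (-0.79) followed, with adjusted p from 5.68e-07 for Nkd1 to 0.0184 for Dkk1. The surface proteins did not pass: Znrf3 differed by -0.12 (95% interval -0.41 to 0.18; it passed after the GC and length correction, -0.31, adjusted p = 0.0499), Rnf43 by 0.13 (-0.18 to 0.44) and Lgr5 by 0.32 (-0.19 to 0.83). The median over the 10 genes was -1.04, beside 0.14 over all genes. Without 96h replicate 1, the library with the highest Dkk1 of its group, Dkk1 differed by -0.52 and did not pass (adjusted p = 0.0875), and it did not pass without TLSMG replicate 3 either (0.0550).

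All 12 presomitic and tailbud markers fell in both comparisons with 96h. Among them Msgn1, a presomitic mesoderm factor, had 136 ± 36.45 TPM in 96h, 0.165 ± 0.164 in Gastruloid and 1.19 ± 0.575 in TLSMG. The ligand Wnt3a had 34.1 ± 7.87 TPM in 96h, 1.17 ± 0.132 in Gastruloid and 2.23 ± 0.218 in TLSMG. Neural tube markers rose in 8 of 8 tested in Gastruloid and 7 of 8 in TLSMG, and endothelial markers in 6 of 9 and 9 of 9. Somite markers rose in 6 of 10 and fell in 3 in both. Gut endoderm and pluripotency markers passed in fewer, with 4 of 10 pluripotency markers lower in TLSMG. Over all genes 20.8% rose and 20.5% fell in Gastruloid, and 33.5% and 12.5% in TLSMG. The part of these shifts in marker levels in the fall of the 10 genes was not tested.

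Other genes of the pathway moved in both directions in the 2 comparisons. Of 14 tested inhibitors and feedback genes outside the 10, 4 rose and 7 fell in Gastruloid, and 7 rose and 5 fell in TLSMG. The rise was largest for Sfrp2, a secreted WNT-binding protein, from 25.9 ± 2.03 TPM in 96h to 114 ± 23.0 in Gastruloid and 90.1 ± 9.95 in TLSMG. The falls were led by Tnfrsf19, a receptor of the TNF family known as a WNT target, in Gastruloid (-1.87 ± 0.12), and by the secreted inhibitor Sfrp5 in TLSMG (-1.85 ± 0.26). Of the R-spondin list, 3 of 6 genes were tested and all passed in both comparisons. Rspo3, an R-spondin ligand, fell from 162 ± 16.8 TPM to 13.9 ± 4.34 in Gastruloid and 21.5 ± 4.83 in TLSMG, Rspo1 fell as well, and the receptor Lgr4 rose from 10.6 ± 0.740 to 31.3 ± 1.03 and 33.2 ± 2.75 TPM. In the co-receptor, secretion and Dishevelled list 1 of 7 rose in Gastruloid, the WNT carrier Wls (0.24, lost without 96h replicate 1 or 2 or Gastruloid replicate 2, adjusted p from 0.0514 to 0.0803), and 4 rose and 1 fell in TLSMG. In the destruction complex list 1 of 9 rose and 1 fell in Gastruloid, and 4 rose in TLSMG, where 33.5% of all genes rose. With median-of-ratios scaling the TLSMG count was 2 higher and 2 lower, and after the GC and length correction 1 higher. The gene that fell in Gastruloid was Axin1 (-0.17 ± 0.06, adjusted p = 0.0485), which did not pass with FPKM (0.221) or without any 1 of 96h replicates 1, 2 and 3 and Gastruloid replicates 1 and 2 (0.0641 to 0.150). The homologue Apc2 rose in both, to 3.43 ± 0.606 and 2.30 ± 0.721 from 0.694 ± 0.150 TPM. Beta-catenin itself (Ctnnb1) differed by -0.15 (adjusted p = 0.426) and 0.12 (0.524). Of 10 other TCF factors and nuclear cofactors, 2 rose and 1 fell in Gastruloid, and 5 rose and 1 fell in TLSMG, with the co-repressor Tle4 lower in both (-0.74 and -0.36).

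Between structures with and without Matrigel at 120 h the differences were smaller. In TLSMG against Gastruloid 4 of the 10 were higher and none lower, where 39.3% of all genes passed, 31.5% upwards and 7.87% downwards, and the median over the 10 genes was 0.32 beside 0.13 over all genes. Sp5 was 1.93 times as high in TPM (log2 difference 0.82 ± 0.17, adjusted p = 0.0027), with no overlap. Tcf7 (0.30 ± 0.08, 0.00793) and Lgr5 (0.64 ± 0.24, 0.0452) did not overlap between the groups, while Znrf3 (0.37 ± 0.14, 0.0479) did. Scaling libraries by the median of ratios in place of TPM lowered the median of all genes to -0.02 and the share of higher genes among those called from 80% to 51.5%, and then Sp5 passed (0.67, adjusted p = 0.00897) and Tcf7, Lgr5 and Znrf3 did not. Of the 6 genes that did not pass, Dkk1 differed by 0.51 with no overlap (adjusted p = 0.146, but 0.0114 with a difference of 1.53 on the log2(TPM + 0.1) scale and 0.0212 with only the groups compared), Notum by -0.08 (0.756) and the others by 0.24 to 0.33. The calls for Lgr5 and Znrf3 also depended on single libraries. Lgr5 passed only without Gastruloid replicate 1 among the 6 libraries left out in turn, and not without Gastruloid replicate 2 or 3 or TLSMG replicate 1, 2 or 3 (adjusted p from 0.0727 to 0.179). Znrf3 did not pass without Gastruloid replicate 1 or 2 or TLSMG replicate 1 or 3 (0.0973 to 0.194). In turn Axin2 (adjusted p = 0.0340) and Nkd1 (0.0180) passed without TLSMG replicate 1, Lef1 (0.0305) without Gastruloid replicate 3 and Rnf43 (0.0394) without Gastruloid replicate 2. With no filter neither Znrf3 (0.0923) nor Lgr5 (0.103) passed, with FPKM neither Tcf7 (0.114) nor Znrf3 (0.197), and Znrf3 did not pass with only the groups compared (0.0798). After the GC and length correction neither Znrf3 (0.587) nor Lgr5 (0.440) passed. With coverage in place of TPM Znrf3 did not pass (0.0817) and Axin2 did (0.0302).

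In the same comparison endothelial markers were higher in 8 of 9 tested, with a median difference of 2.42 and a sum of 267 to 324 TPM in TLSMG against 34.6 to 45.8 in Gastruloid. Over all genes tested 31.5% were higher and 7.87% lower. Presomitic and tailbud markers were higher in 4 of 12, near that share. Lower were 3 of 8 neural tube, 5 of 10 pluripotency, 3 of 10 somite and 1 of 8 gut endoderm markers, with 1 somite marker higher. Their part in the differences of the 10 genes was not tested.

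With renewed CHIR nearly all of the genes were higher. In TLSMGC against TLSMG 9 of the 10 were higher and none lower, where 40.9% of all genes passed, 10.4% upwards and 30.5% downwards, and the median over the 10 genes was 1.48 beside -0.16 over all genes. With median-of-ratios scaling the median of all genes was -0.01, the share of higher genes among those called was 49.5% in place of 25.5%, and 9 of the 10 genes again rose. Notum rose from 2.38 ± 0.520 to 67.0 ± 5.98 TPM, 28.1 times, a log2 difference of 4.34 ± 0.18 (95% interval 3.95 to 4.73, adjusted p = 1.62e-09). Sp5 rose 24.6 times, from 7.20 ± 0.849 to 177 ± 18.3 TPM (4.44 ± 0.17, 4.07 to 4.82, adjusted p = 8.75e-10). These were the largest responses, in a secreted inhibitor and a nuclear factor. The intracellular inhibitors Nkd1 (2.50 ± 0.10, 5.83 times) and Axin2 (2.05 ± 0.17, 4.19 times) rose less, as did Tcf7 (1.501 ± 0.08, 2.86 times) and Dkk1 (1.46 ± 0.27, 5.58 times). Changes under 1 on the log2 scale were seen in Lef1 (0.62 ± 0.12, 1.54 times), Znrf3 (0.52 ± 0.14, 1.49 times) and Rnf43 (0.41 ± 0.15, 1.60 times). The libraries of these 9 genes did not overlap between the groups. Lgr5 overlapped and did not pass (0.30, 95% interval -0.21 to 0.81, adjusted p = 0.337). The call for Rnf43 (adjusted p = 0.0381) was lost without TLSMG replicate 1 or 3 or TLSMGC replicate 1 or 2 (0.0971 to 0.135), and also on the log2(TPM + 0.1) scale (0.0629), with no filter (0.0614) and with only the groups compared (0.0667).

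**Figure D2:**
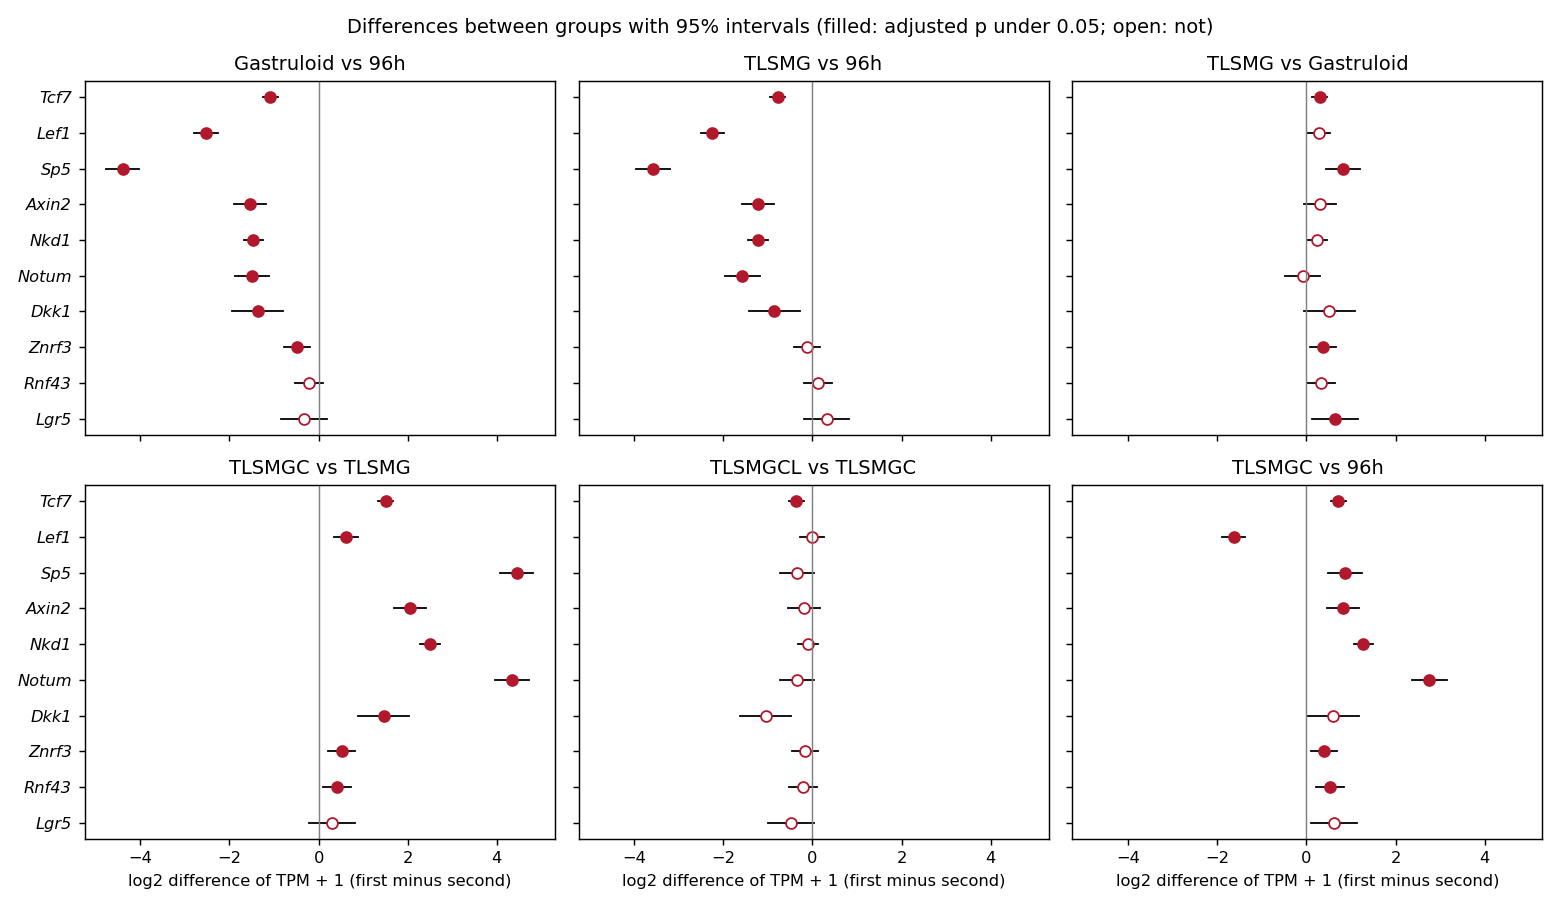
Log2 difference of TPM + 1 for each gene in 6 comparisons of groups, with 95% intervals from the limma fit, filled where the adjusted p was under 0.05. Sp5 and Notum moved furthest with renewed CHIR (4.44 and 4.34 in TLSMGC vs TLSMG), the differences of TLSMGCL vs TLSMGC other than Dkk1 (-1.05) lay between -0.48 and -0.01, and Lef1 alone was lower in TLSMGC than in 96h (-1.63), while the filled points of TLSMG vs Gastruloid other than Sp5 opened under median-of-ratios scaling.

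With CHIR, the other pathway genes did not move as a block. Over all genes 10.4% rose and 30.5% fell in TLSMGC against TLSMG. Of the 14 other inhibitors and feedback genes, 4 rose and 6 fell. The 4 that rose were Tnfrsf19 (27.4 ± 2.49 to 142 ± 11.5 TPM, log2 difference 2.33 ± 0.12), Apcdd1, a membrane inhibitor of WNT (1.80 ± 0.09), Nkd2, the paralogue of Nkd1 (1.66 ± 0.12), and Frzb, a secreted WNT-binding protein (0.59). Apcdd1, Nkd2 and Frzb, as well as Sfrp1, Sfrp2, Tcf7l1 and Tcf7l2 in this comparison, were named after their values were seen. The falls included the secreted inhibitors Sfrp5 (-1.61 ± 0.26), Sfrp2 (-0.61) and Sfrp1 (-0.76). Of the R-spondin genes, Rspo1 rose from 3.89 ± 0.494 to 7.28 ± 0.157 TPM and Lgr4 fell from 33.2 ± 2.75 to 15.1 ± 2.14 TPM, and Rspo3 did not pass (-0.19, adjusted p = 0.464). In the destruction complex list 5 of 9 fell and none rose. The count was 3 of 9 with median-of-ratios scaling, and 1 up and 1 down after a correction for GC content and length. Among the falls was Gsk3b, which encodes a kinase that CHIR99021 inhibits, with 25.7 ± 13.9 against 53.4 ± 2.01 TPM (-1.15 ± 0.33, adjusted p = 0.0141). It did not pass without TLSMGC replicate 2 (0.0540) or 3 (0.0690), nor after the GC and length correction (0.0712). Of the other TCF factors and nuclear cofactors 9 of 10 fell, and 5 of 10 with median-of-ratios scaling. They included Tcf7l1, which acts mainly as a repressor, from 73.6 ± 2.61 to 26.8 ± 2.37 TPM (-1.43 ± 0.12, adjusted p = 8.74e-07), Tcf7l2 (-1.29 ± 0.16) and the co-repressor Tle2 (-1.76 ± 0.22). Tcf7l1 and Tcf7l2 thus fell where Tcf7 and Lef1 rose. Co-receptor, secretion and Dishevelled genes fell in 3 of 7, led by Lrp6 (-0.57 ± 0.13), with 2 lower and 1 higher under median-of-ratios scaling.

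Cell type markers moved in the same comparison. Of the presomitic and tailbud markers 7 of 12 rose, among them T (1.19 ± 0.19), Tbx6 (3.19) and Msgn1 (1.19 ± 0.575 to 36.6 ± 8.15 TPM), and 1 fell. Neural tube markers fell in 7 of 8 tested, endothelial markers in 9 of 9, pluripotency markers in 8 of 10 and gut endoderm markers in 5 of 8. Their median differences were -2.03, -2.20, -1.26 and -0.76. Over all genes 30.5% fell and 10.4% rose, with a median of -0.16 on the TPM scale and -0.01 with median-of-ratios scaling. Somite markers fell in 7 of 10, led by Pax1 (-3.81), and rose in 2, led by Aldh1a2 (1.85). Their part in the rise of the 10 genes was not tested.

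With LDN added to CHIR, few differences exceeded the spread between libraries. In TLSMGCL against TLSMGC 1 of the 10 was lower and none higher, where 1.18% of all genes passed, 0.777% downwards and 0.406% upwards. Higher genes made up 34.3% of those called, and 50.7% with median-of-ratios scaling. Tcf7 fell from 165 ± 6.12 to 128 ± 11.1 TPM, a log2 difference of -0.37 ± 0.08 (adjusted p = 0.0399), with no overlap. This call did not hold when any of the 6 libraries was left out: adjusted p was 0.126, 0.111 and 0.0531 without TLSMGC replicates 1, 2 and 3, and 0.0749, 0.104 and 0.0681 without TLSMGCL replicates 1, 2 and 3. It did not hold with no filter (0.0655) or with only the groups compared (0.193) either. Dkk1, with 1.25 ± 0.178 against 3.84 ± 1.75 TPM, did not overlap either, and its difference of -1.05 (95% interval -1.63 to -0.47) did not pass after adjustment (adjusted p = 0.0859, and 0.0431 without TLSMGC replicate 3). Sp5 (-0.35, interval -0.73 to 0.02) and Notum (-0.35, -0.74 to 0.04) did not overlap and did not pass. Lef1 differed by -0.01 (-0.27 to 0.25), with the sign turned by another scaling. The estimates for all 10 genes were below 0 on the TPM scale, with a median of -0.28 beside -0.04 over all genes. Nkd1 differed by -0.09 with an interval of -0.32 to 0.13, and Axin2 by -0.19 with an interval of -0.55 to 0.17.

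Among other pathway genes in this comparison, Shisa3, which holds Frizzled inside the cell, fell from 3.38 ± 0.240 to 1.02 ± 0.164 TPM (-1.12 ± 0.16), and Frzb fell by 0.64 on the log2 scale, as the only called members of its list of 14. None of the 3 R-spondin genes, 7 co-receptor genes, 9 destruction complex genes and 10 nuclear factors passed in limma, where an unadjusted p under 0.05 was reached by 0, 2, 0 and 2 of them. Of the presomitic markers 1 fell, Msgn1, from 36.6 ± 8.15 to 15.4 ± 1.45 TPM, as did 3 of 9 endothelial markers, whose sum was 12.8 to 21.2 against 25.1 to 84.5 TPM. Of 8 neural tube markers tested 1 fell, Nkx6-1 (-0.94 ± 0.20), and of 10 somite markers 1 rose, Aldh1a2 (0.82 ± 0.12). No gut endoderm or pluripotency marker passed. An unadjusted limma p under 0.05 was reached by 5 of 10 pluripotency markers, with a median difference of 0.51, and by 0 of 8 gut endoderm markers. It was also reached by 7 of 9 endothelial markers (median -1.06) and 7 of the 14 other inhibitors and feedback genes (median -0.19). The median over all genes was -0.04. The part of these markers in the lower estimate of Tcf7, whose call did not hold with any library left out, was not tested.

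The last comparison sets the CHIR-treated structures against the 96 h precursors, and shares its TLSMGC and 96h libraries with those above. In TLSMGC, 7 of the 10 genes were higher than at 96 h and 1 lower, where 40.7% of all genes passed, 20.6% upwards and 20.1% downwards, and the median over the 10 genes was 0.67 beside 0.02 over all genes. Notum was 7.23 times as high (log2 difference 2.76 ± 0.18, adjusted p = 6.67e-08) and Nkd1 2.45 times (1.28 ± 0.10, 4.89e-07). Sp5 (0.86 ± 0.17), Axin2 (0.82 ± 0.17), Tcf7 (0.72 ± 0.08), Rnf43 (0.54 ± 0.15) and Znrf3 (0.40 ± 0.14) were also higher. Lef1 went the other way, with 105 ± 6.86 against 329 ± 31.7 TPM (-1.63 ± 0.12, adjusted p = 2.28e-07). Apart from Znrf3, which did not pass without 96h replicate 2 (0.134) or 3 (0.0662) or TLSMGC replicate 1 (0.138), with no filter (0.0619) or with only the groups compared (0.0540), each of these 8 calls held without any of the 6 libraries. Dkk1 (0.61, adjusted p = 0.0865) and Lgr5 (0.61, 0.0532) overlapped and did not pass. Both passed without 96h replicate 1 (0.00702 and 0.0179) and without TLSMGC replicate 3 (0.0324 and 0.0483). In TLSMGCL against 96h, Axin2, Sp5, Notum, Nkd1 and Tcf7 were higher and Lef1 lower, where 39.5% of all genes passed, 17.4% upwards and 22.1% downwards.

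Presomitic and tailbud markers were lower in TLSMGC than in 96h in 11 of 12, with summed levels of 476 to 607 against 1724 to 2219 TPM, although 7 of the WNT genes were higher. Pluripotency markers were lower in 10 of 10 and gut endoderm markers in 5 of 8, and endothelial markers were higher in 6 of 9. Of 10 somite markers 4 were higher and 5 lower. Of 8 neural tube markers tested 2 were higher and 1 lower, with a median difference of -0.04. These neural tube counts were near the shares over all genes, 20.6% higher and 20.1% lower. Wnt3a had 3.86 ± 0.257 TPM in TLSMGC against 34.1 ± 7.87 in 96h. Rspo3 was also lower, at 18.5 ± 2.07 against 162 ± 16.8 TPM. Of the 14 other inhibitors and feedback genes 5 were higher, among them Apcdd1 (29.7 ± 2.26 against 10.5 ± 0.193 TPM) and Tnfrsf19, and 3 lower, led by Sfrp5. Sfrp5 was listed at 0 in 2 of the TLSMGC libraries and at 0.194 TPM in the remaining one, against 11.9 ± 7.35 TPM in 96h. None of the 9 destruction complex genes passed in limma, and none had an unadjusted p under 0.05. Tcf7l1 was lower (-1.56 ± 0.12), as were Tcf7l2, Tle2 and Tle4, while Pygo1 and Tle1 were higher.

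**Figure D3:**
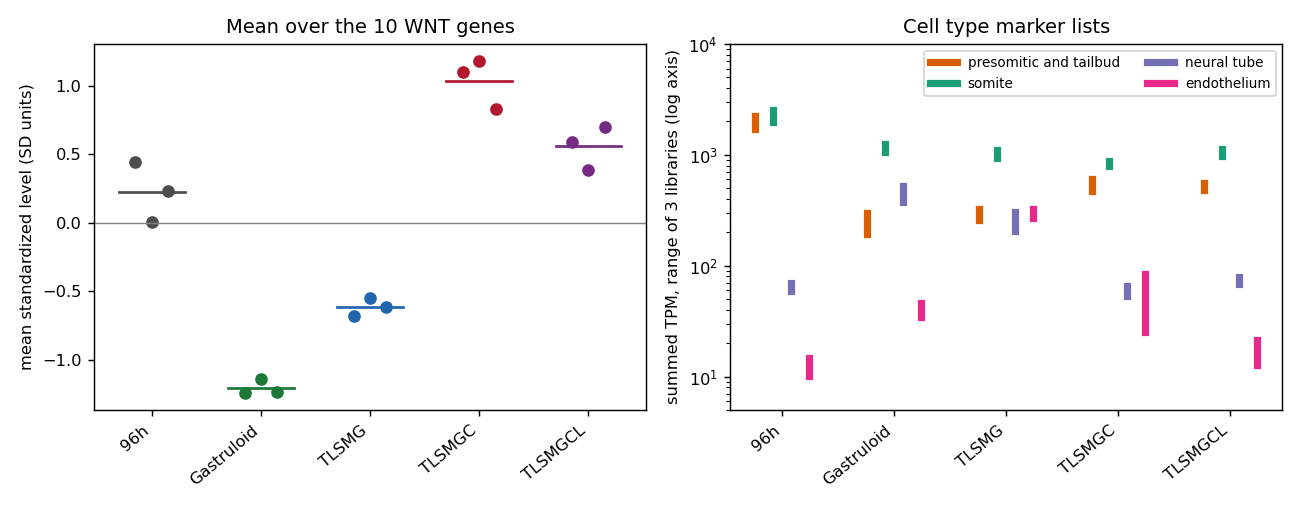
Left, mean over the 10 genes of their level on the log2(TPM + 1) scale, standardized over the 15 libraries, with 1 point per library and lines at group means; right, range over 3 libraries of the summed TPM of 4 marker lists on a log axis. The WNT genes were highest in TLSMGC (0.83 to 1.18 SD units), whereas presomitic and tailbud markers were highest in 96h (1724 to 2219 TPM).

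Lef1 and Tcf7 encode factors that bind the same motif, and the ratio between them shifted across the groups. The TPM of Lef1 divided by that of Tcf7 was 3.801, 3.17 and 2.96 in the 96h libraries, 1.07, 1.30 and 1.27 in Gastruloid, 1.14, 1.16 and 1.26 in TLSMG, 0.657, 0.641 and 0.621 in TLSMGC, and 0.849, 0.834 and 0.774 in TLSMGCL. The 96h libraries were above all others, Gastruloid and TLSMG overlapped, TLSMGCL came next and TLSMGC was lowest. Each of 6 comparisons of groups, those of the design other than TLSMG vs Gastruloid and also TLSMGC vs Gastruloid, had no overlap and gave p = 0.1 in an exact two-sided permutation test, which is the smallest p that 3 against 3 allows, and so cannot pass 0.05. Because the TPM of Lef1 rests on how reads were assigned to its 8 annotated transcripts, the size of the ratio is uncertain. From coverage it was lower throughout, from 0.344 to 0.436 in 96h and from 0.0708 to 0.0751 in TLSMGC, in the same order of group means.

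**Figure D4:**
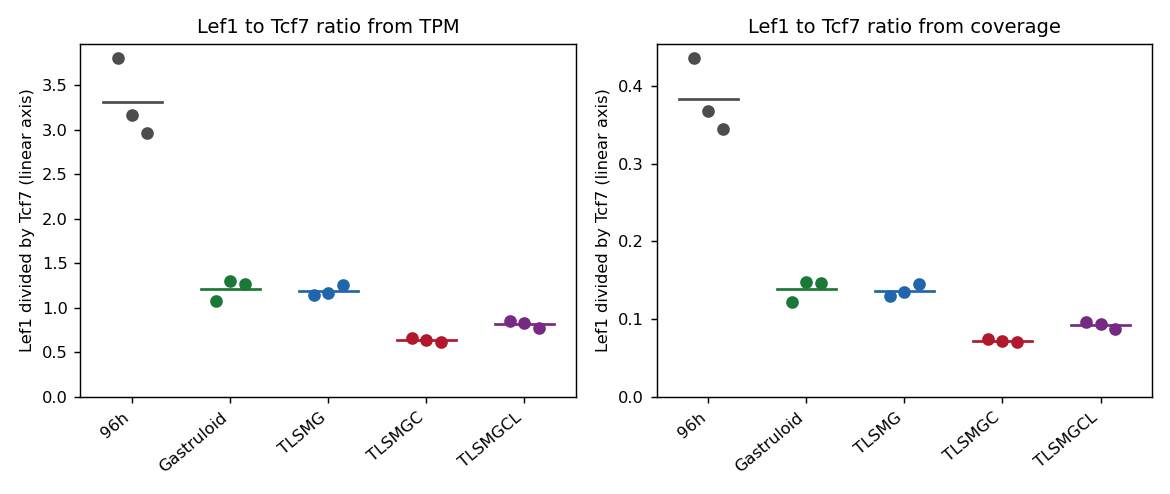
Ratio of Lef1 to Tcf7 in each library on linear axes, from TPM (left) and from coverage (right), with lines at group means. In both, 96h was highest and TLSMGC lowest, at 2.96 to 3.801 against 0.621 to 0.657 from TPM, although the 2 measures differ in scale.

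Across the 15 libraries the genes varied together to different degrees, as described by Pearson's r of log2(TPM + 1). These r values reflect the 5 groups that the libraries share and are given without p. Over the 45 pairs the median r was 0.731, and 16 pairs lay above 0.8. Axin2, Nkd1, Notum, Sp5 and Tcf7 formed the tightest set, with 0.903 (Sp5 and Notum) to 0.979 (Notum and Nkd1). Znrf3 followed this set at 0.816 to 0.891, although its level spanned a narrow range. Lef1 was loosely tied to the others, with a median r of 0.404 and values from 0.0212 (Lgr5) to 0.642 (Sp5). Lgr5 had a median of 0.468 and its highest r with Rnf43 (0.725) and Dkk1 (0.722). Coverage reached at most 0.468 reads per base in Rnf43 and 3.92 in Lgr5, and ran from 0.185 to 13.4 in Dkk1. With these 3 genes, all under a mean of 5 TPM, left out, the median of the remaining pairs was 0.891.

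**Figure D5:**
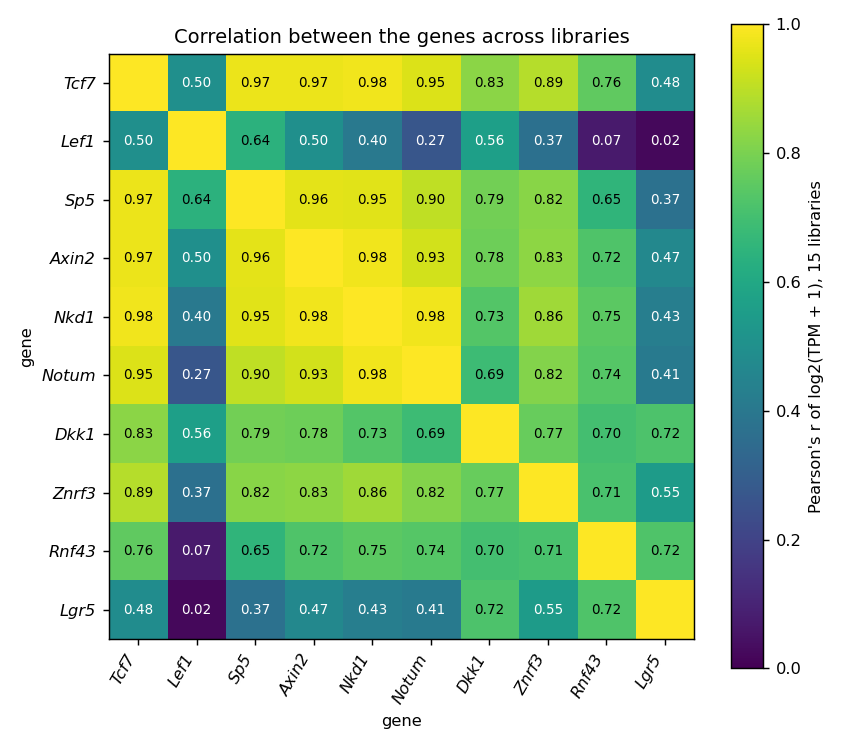
Pearson's r of log2(TPM + 1) over 15 libraries for each pair of the 10 genes, shown by colour and printed in the cells. Tcf7, Sp5, Axin2, Nkd1 and Notum form a block from 0.90 to 0.98, while the row of Lef1 runs from 0.02 to 0.64.

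Among 11747 other genes with a mean of at least 5 TPM in their highest group, the 5 most like the mean of the 10 genes over the 15 libraries were Rdh11 (r = 0.977), Rel (0.968), Klf10 (0.968), Efemp1 (0.967) and Snhg6 (0.966). Rdh11 encodes a retinol dehydrogenase, Rel an NF-kappaB subunit, Klf10 a zinc finger factor, Efemp1 an extracellular matrix protein and Snhg6 a host RNA of small nucleolar RNAs. Rel had 3.79 ± 0.166 TPM in 96h, 0.950 ± 0.129 in Gastruloid, 2.43 ± 0.323 in TLSMG, 10.9 ± 2.65 in TLSMGC and 8.55 ± 2.11 in TLSMGCL. The 5 with the lowest r were H2afv (-0.984), Pink1 (-0.974), H3f3a-ps2 (-0.973), Cnn2 (-0.972) and Npdc1 (-0.969), of which H3f3a-ps2 is a pseudogene whose reads may belong to its parent gene. Under other settings Efemp1 kept r between 0.967 and 0.992, and H3f3a-ps2 ranged from -0.973 to -0.819. Of the pathway lists, Tnfrsf19 (0.954), Rspo1 (0.929), Apcdd1 (0.909) and Nkd2 (0.859) had the highest r, which were picked after the values were seen, and Rspo3 had 0.161. Among presomitic and tailbud markers Msgn1 (0.787) and Tbx6 (0.757) were the highest and Cyp26a1 (-0.338) the lowest. Stronger ties, of opposite sign, were found in other lists. Neural tube markers were led by Olig2 (-0.962), Sox3 (-0.938), Pax6 (-0.933) and Irx3 (-0.926), and pluripotency markers by Dppa5a (-0.931). Somite markers were led by Meox1 (-0.923) and Pax1 (-0.922), and the pathway lists by Ccnd1 (-0.901) and Apc2 (-0.899).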

How the data were processed

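Bulk RNA sequencing tables of 15 libraries were analysed, 3 in each of 5 groups taken from the sample titles. Per the labels, stranded libraries of polyadenylated RNA were read as pairs of 75 bases. Per the submitters' processing notes, cutadapt 2.4, STAR 2.7.3a, StringTie 2.0 and build mm10 were named, with no roles given. The deposited TPM and FPKM values and the deposited coverage values are StringTie gene estimates, 1 table per library, per the file headers. Coverage served the depth figures and a check.

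Differences were tested on log2(TPM + 1) with limma 3.58.1 in R 4.3.3, on genes averaging 1 TPM or more, in 1 fit of all groups (10 residual degrees of freedom) with a mean trend, two-sided, Benjamini-Hochberg adjusted within each comparison at 0.05. Log2 differences understate changes of low genes. The fit was run on simulated independent normal values with known changes. This checks the code, and not whether these data meet the assumptions of the fit. The 10 genes, the pathway and marker lists and the rule for naming genes (in each pathway list and comparison the called gene with the largest difference each way, and the 5 genes most and least like the mean of the 10) were chosen with earlier results of these data known. Of the markers, those that a result turns on are named. Alternatives were a pseudocount of 0.1, no filter, a mean of at least 5 TPM, median-of-ratios scaling, FPKM, a correction for GC content and length, only the groups compared, a replicate block, leaving out each library, and, chosen after seeing the data, coverage in place of TPM. Python 3.11.15 with pandas 2.3.3, numpy 2.4.6 and matplotlib 3.10.9 was used for loading, motif search and figures. The single-cell samples were not analysed here.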

Additional observations from a re-analysis of the deposited data

How the results depend on the processing

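Of the 852 recomputed differences of the 10 genes, 785 kept their direction and side of the threshold, 47 lost the call, 13 gained it and 7 changed sign. In TLSMG vs Gastruloid the 10 genes gave 4 calls as reported, 2 with no filter, 1 with median-of-ratios scaling, 1 with FPKM and 2 after GC and length correction, where 3284 of all genes passed. In TLSMGCL vs TLSMGC they gave 1 call as reported and 0 with no filter, 0 with only the groups compared and 0 with the replicate block, and all genes called were 169 as reported, 277 after GC and length correction and 42 with only the groups compared. FPKM and a mean of at least 5 TPM tested only 7 of the 10 genes, and the median r was then 0.898 and 0.891. The signs that changed were Lgr5 in TLSMG vs 96h (-0.00079 after GC and length correction), Notum in TLSMG vs Gastruloid (-0.16 to 0.052 with 1 library left out, positive without TLSMG replicate 2), and Lef1 in TLSMGCL vs TLSMGC (0.026 with median-of-ratios scaling, 0.0087 with FPKM, 0.036 after GC and length correction, and -0.074 to 0.047 with 1 library left out, positive without TLSMGC replicate 1 or TLSMGCL replicate 2). Leaving out 1 library gave 56 to 198 genes called in TLSMGCL vs TLSMGC (56 without TLSMGC replicate 2, 70 and 78 without TLSMGCL replicates 1 and 3), 2 to 4 of the 10 genes in TLSMG vs Gastruloid (2 without TLSMG replicate 3), 7 to 10 in TLSMGC vs 96h, 8 to 9 in TLSMGC vs TLSMG, 0 to 1 in TLSMGCL vs TLSMGC (1 only without TLSMGC replicate 3, where the gene called was Dkk1), and a median r of 0.699 to 0.777. In the remaining counts it moved them by less than 1.5 times. The cause of these changes was not tested. Replicate numbers did not pair the libraries: deviations from group means correlated at a mean r of -0.0196 over 30 same-numbered pairs and 0.00992 over 60 others. With the replicate block the 10 genes gave 8, 7, 3, 8, 0 and 8 calls in Gastruloid vs 96h, TLSMG vs 96h, TLSMG vs Gastruloid, TLSMGC vs TLSMG, TLSMGCL vs TLSMGC and TLSMGC vs 96h, losing Lgr5 in TLSMG vs Gastruloid (adjusted p = 0.0549), Rnf43 in TLSMGC vs TLSMG (0.0505) and Tcf7 in TLSMGCL vs TLSMGC (0.0511), and Axin1 in Gastruloid vs 96h was lost too (0.0688). Coverage, chosen after seeing the data, tested 8 of the 10 genes. Depth limits Rnf43, Dkk1 and Lgr5 most, whose coverage fell to 0.140, 0.185 and 0.527 reads per base.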
